A study of Danio rerio with 114 samples.

Results

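The genes *nanog* (ENSDARG00000075113), *pou5f3* (ENSDARG00000044774) and *sox19b* (ENSDARG00000040266) encode the maternally supplied transcription factors that open the zygotic genome in zebrafish. They were taken by these Ensembl identifiers, which makes 3 of the 31466 gene identifiers counted, and all 3 had reads in each of the 114 libraries. RNA came from TLAB fish that were wild type (WT) or *ski7*-/-, a line with a CRISPR/Cas9 deletion in the exon used by *ski7* and not by *hbs1l*, the other product of the same locus. Oocytes of stages I (O1), II (O2), III (O3) and IV-V (O4), unactivated (UNA), activated (ACT) and fertilized (FER) eggs, and embryos at the 2-cell (E1), 64-cell (E2), 1000-cell (E3) and sphere (E4) stages were collected from both genotypes. PolyA+ libraries (66) covered the 11 stages and rRNA-depleted libraries (48) covered the 8 stages of oogenesis and embryogenesis, with 3 replicates in each of the 38 groups. Oocytes were sorted by hand for size and opacity from ovaries of 3 different females per genotype. The oocyte stages are thus not separate sets of fish. The UNA, ACT and FER samples were taken from the same females with only good-quality eggs kept, and each embryo sample was a pool. The cross that gave the *ski7*-/- embryos is not given in the sources used here.

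Nanog is a homeodomain factor, Pou5f3 is a POU-domain factor related to mammalian Oct4, and Sox19b belongs to the SoxB1 group of HMG-box factors. Their mRNAs are made by the mother during oogenesis and stored in the egg, and the proteins translated from them bind enhancers of early zygotic genes, make chromatin accessible and allow transcription from the embryonic genome during the blastula stages. Translation of stored mRNAs is tied to the length of their polyA tails, so a library selected on polyA and a library depleted of rRNA can give different levels for the same mRNA. Ski7 is known from yeast as the adaptor between the cytoplasmic RNA exosome, which degrades mRNA from its 3' end, and the SKI complex that feeds it.

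Levels are given as CPM, the reads on a gene scaled to the number of reads counted on all genes in its library. Library depth ranged from 2910639 to 145420525 reads in polyA+ RNA and from 1439427 to 46600444 in rRNA-depleted RNA, and each library held at least 1174 *nanog*, 390 *pou5f3* and 312 *sox19b* reads. In polyA+ oocyte libraries the summed level of 7 oocyte markers was 3018 to 4124 CPM in WT and 2605 to 4101 CPM in *ski7*-/-, and 6 of the 7 reached 10 CPM in every library. Summed ovarian somatic markers (7 genes) ranged from 9.19 to 135 CPM in WT and from 8.26 to 176 CPM in *ski7*-/- oocytes of this library type, and reached at most 2.14 CPM in polyA+ eggs and embryos. The gene identifier of *hbs1l* may collect *ski7* reads as well, so it does not report the deletion by itself. It stood at 21.5 to 25.6 CPM (stage means) in polyA+ WT oocytes and at 15.6 to 16.9 CPM in *ski7*-/- oocytes. In polyA+ eggs the order was reversed, with 7.10 to 8.74 CPM in WT and 9.74 to 10.9 CPM in *ski7*-/-. Mutant means were also higher at each polyA+ embryo stage, with 17.6 CPM in WT and 21.3 CPM in *ski7*-/- at E4. In rRNA-depleted RNA they were lower in oocytes, with 27.1 and 17.4 CPM at O1 in WT and *ski7*-/-. They were higher in rRNA-depleted embryos, with 18.9 and 26.8 CPM at E3. The paper reports *ski7* mRNA far above *hbs1l* mRNA in mature eggs, while the polyA+ WT level of this identifier was lower in eggs than in oocytes. For *hbs1l* mRNA itself, quantified per transcript, the paper reports no difference between mutants and WT. Whether the identifier collects the *ski7* reads was not tested, and no test of its genotype difference is given here. One library stood apart, the polyA+ *ski7*-/- O2 replicate 1, in which *nanog*, *pou5f3* and *sox19b* reached 1159, 607 and 797 CPM. The O2 genotype results of the 3 genes in polyA+ RNA are also given without mutant replicate 1. A replicate left out of a fit was left out at every stage of that fit, so no fit left out this library alone.

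**Figure D1:**
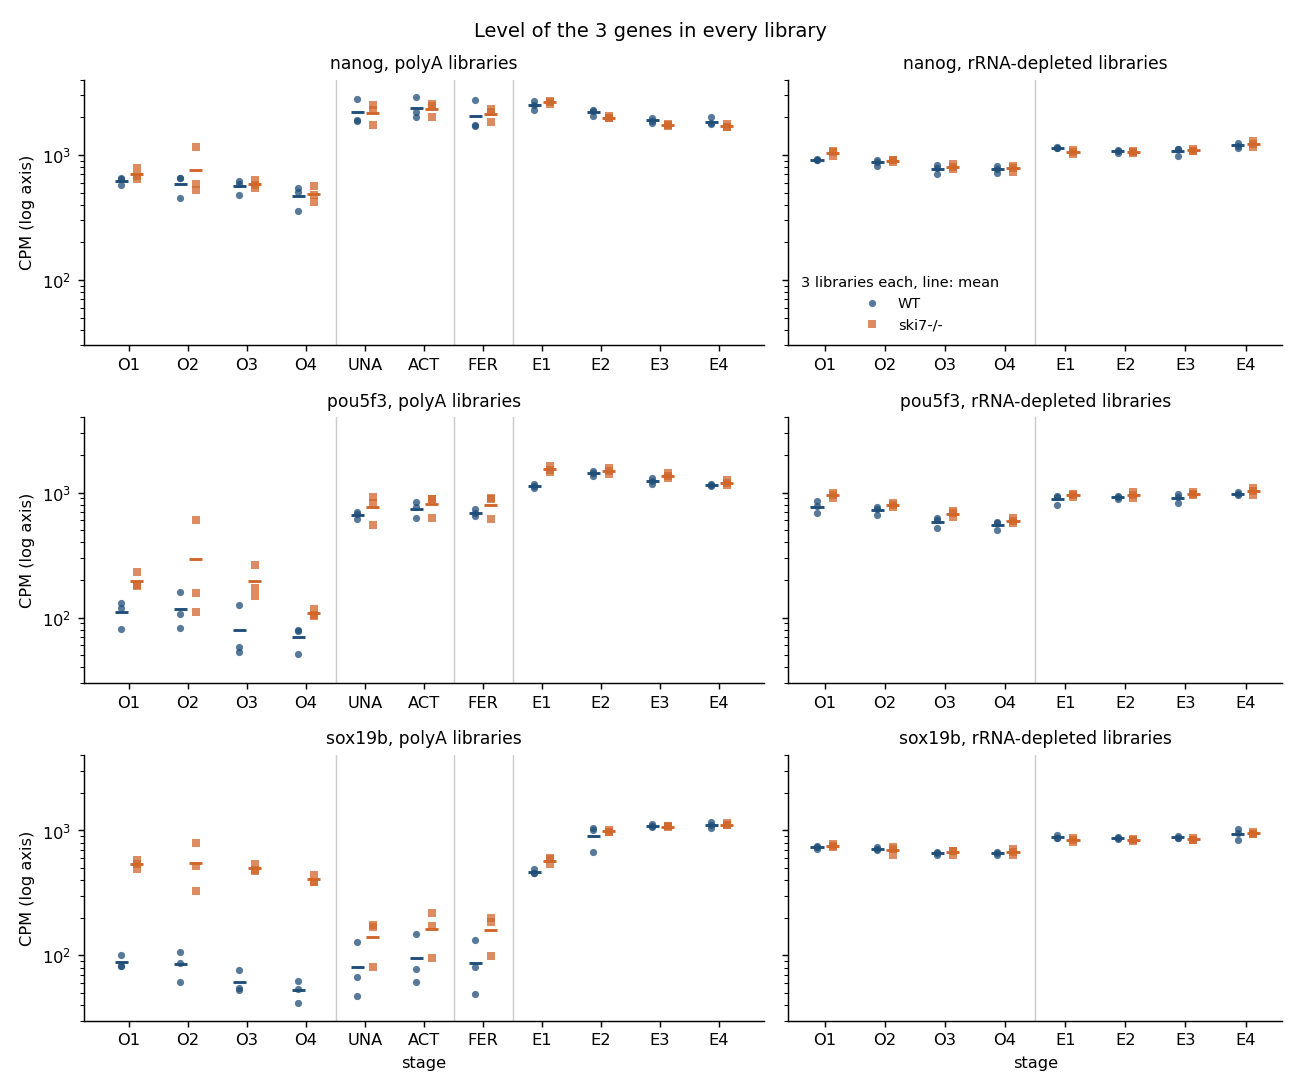
CPM of *nanog*, *pou5f3* and *sox19b* (rows, log axis) at each stage in polyA+ (left) and rRNA-depleted (right) libraries; each symbol is a library, lines are means of 3, circles are WT and squares are *ski7*-/-. In polyA+ oocytes the *sox19b* squares lie between 325 and 797 CPM and the circles between 41.3 and 107 CPM, while in rRNA-depleted oocytes both lie between 635 and 784 CPM.

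The first comparison asked whether loss of Ski7 changed the level of the 3 mRNAs at each stage. The *sox19b* mRNA was 6 to 8 times as abundant in polyA+ RNA of *ski7*-/- oocytes as in WT oocytes at all 4 stages, whereas its log2 differences in rRNA-depleted RNA of the same stages were -0.06 to 0.07. No genotype difference of *nanog* passed the test at any stage or in either library type. That of *pou5f3* passed it in polyA+ 2-cell embryos and in rRNA-depleted O1 oocytes.

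At O1 the 3 WT libraries held 82.0, 82.8 and 100.4 CPM of *sox19b* and the 3 *ski7*-/- libraries 536, 493 and 582 CPM. The mutant libraries lay far above all WT libraries, with no overlap. At O4 the WT libraries held 62.7, 53.7 and 41.3 CPM and the mutant libraries 390.5, 391 and 438 CPM. Again the groups did not overlap, and both were lower than at O1. At O2 the values were 87.7, 107 and 61.7 CPM in WT and 797, 325 and 519.6 CPM in *ski7*-/-, and at O3 they were 55.1, 53.1 and 77.2 and 475, 486 and 539 CPM. The mutant groups stayed above the WT groups at these middle stages as well, and the widest spread was that of the mutants at O2.

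The log2 fold changes of *sox19b* in polyA+ RNA, estimated with edgeR's quasi-likelihood test with Benjamini-Hochberg adjustment over all genes of the stage, were 2.59 (SE 0.24, adjusted p = 6.86e-07) at O1, 2.60 (SE 0.24, adjusted p = 6.65e-07) at O2, 3.01 (SE 0.24, adjusted p = 1.66e-07) at O3 and 2.96 (SE 0.24, adjusted p = 2.32e-07) at O4. On the linear scale these are 6.04-fold, 6.05-fold, 8.04-fold and 7.80-fold. Without mutant replicate 1 at all 4 oocyte stages, the O2 value was 2.28, adjusted p = 1.99e-05. Each of the 4 calls was kept under 13 of 13 alternatives. The 4 stages were sorted from the same set of ovaries in each genotype, so they are not 4 independent comparisons. Among the 9621 genes tested at each oocyte stage, *sox19b* ranked 14 and 14 by p-value at O1 and O2 and 6 and 6 at O3 and O4. Of all genes tested, 8.13%, 11.7%, 7.71% and 6.44% were called in either direction at O1, O2, O3 and O4. Relative levels in pooled material do not tell fewer cells from less RNA per cell. The summed oocyte and somatic marker levels given above overlapped between the genotypes, and their part in this result was not tested.

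In rRNA-depleted RNA the *sox19b* level did not separate the genotypes. At O1 the WT libraries held 749.6, 706 and 739.5 CPM and the *ski7*-/- libraries 784, 731 and 749 CPM, and at O4 they held 676, 662 and 642 and 679, 635 and 711 CPM. WT and mutant values interleaved at both stages. The log2 fold changes were 0.02 (SE 0.06, adjusted p = 0.863) at O1, -0.06 (SE 0.06, adjusted p = 0.572) at O2, 0.02 (SE 0.06, adjusted p = 0.892) at O3 and 0.07 (SE 0.06, adjusted p = 0.571) at O4. In this library type 16.3%, 13.1%, 10.9% and 11.5% of all genes were called at O1 to O4.

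**Figure D2:**
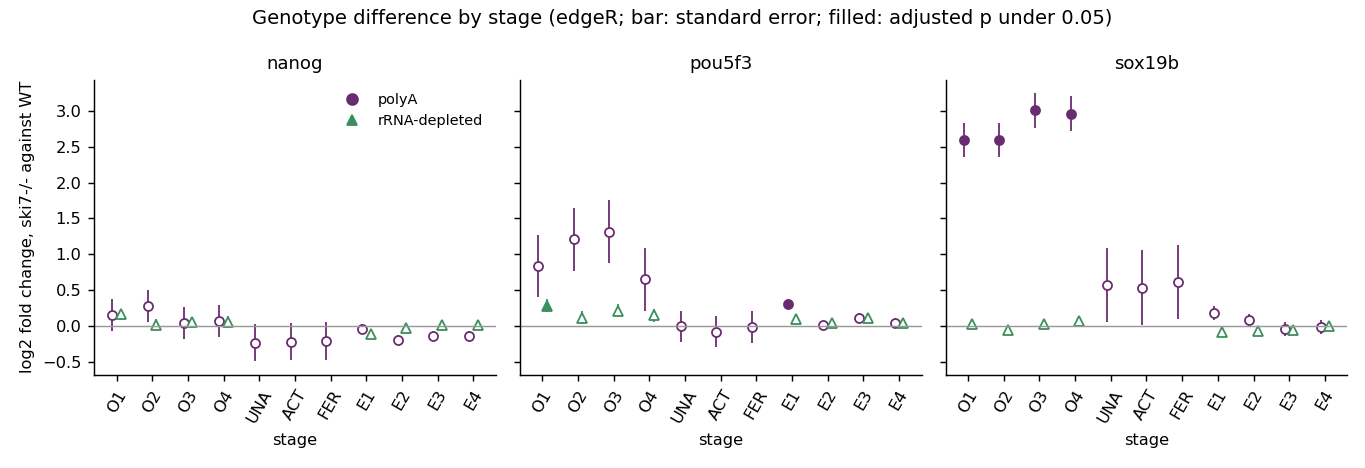
Log2 fold change of *ski7*-/- against WT (vertical axis) at each stage for the 3 genes, from edgeR; circles are polyA+ and triangles rRNA-depleted RNA, bars are standard errors and filled symbols have an adjusted p under 0.05. The *sox19b* circles of the 4 oocyte stages stand between 2.59 and 3.01, and the triangles of the same stages stand between -0.06 and 0.07.

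The difference between the library types was tested itself, as the genotype effect in polyA+ RNA minus that in rRNA-depleted RNA. This comparison was added after the data were seen. It came from 1 fit of 96 libraries, so embryo and rRNA-depleted libraries entered its estimate of the spread. Its SE for *sox19b* was under that of the polyA+ effect alone, and its p-values can overstate the evidence. The 4 oocyte stages and both library types drew on the same set of ovaries in each genotype, and the fit treated them as independent. For *sox19b* it was 2.52 (SE 0.18, adjusted p = 7.72e-18) at O1, 2.51 (SE 0.18, adjusted p = 9.95e-18) at O2, 2.94 (SE 0.18, adjusted p = 3.34e-21) at O3 and 2.89 (SE 0.18, adjusted p = 1.21e-20) at O4 on the log2 scale, and 12 of 12 alternatives kept each call. Without mutant replicate 1 of all shared stages and both library types, the O2 value was 2.35, adjusted p = 1.41e-11. Only 0.0875%, 0.455%, 0.219% and 0.166% of the 11430 genes tested were called in this comparison at O1 to O4. *sox19b* ranked 1 by p-value at each of the 4 stages, and 28, 97, 33 and 32 by log2 fold change. Genes called at all 4 oocyte stages numbered 5. Besides *sox19b* these were *CBX3*, *LAPTM4A*, *kdm7aa* and *MAP4K3*, named here after their values were seen, with log2 differences between 0.77 and 1.48. In embryos no call was made for *sox19b*, with 0.21 (SE 0.17, adjusted p = 0.783) at E1 and smaller values from E2 to E4, the largest of them 0.10 at E2, where 2.58%, 0.28%, 0.437% and 0.07% of all genes were called at E1 to E4.

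The *sox19b* difference was smaller in mature eggs. UNA libraries held 66.9, 47.7 and 129 CPM in WT and 175, 168 and 80.5 CPM in *ski7*-/-, and FER libraries held 81.5, 48.9 and 133 and 198, 185 and 99.1 CPM. The ranges overlapped, since WT replicate 3 was the highest of its group and mutant replicate 3 the lowest of its own in UNA, ACT and FER. The log2 fold changes were 0.57 (SE 0.52, adjusted p = 0.455) for UNA, 0.53 (SE 0.52, adjusted p = 0.503) for ACT and 0.61 (SE 0.52, adjusted p = 0.422) for FER, and none passed the test in edgeR (0 with an unadjusted p under 0.05) or DESeq2, beside 18.4%, 15.1% and 19.8% of all genes. At E1 the 3 WT libraries (456, 490.1 and 459 CPM) all lay under the 3 mutant libraries (589, 599 and 538 CPM), with a log2 fold change of 0.17 (SE 0.10, adjusted p = 0.192). That value missed the threshold, but passed it without WT replicate 2 (0.19, adjusted p = 0.0142) and with library size as the only scaling (0.30, adjusted p = 0.0348). From E2 to E4 the *sox19b* log2 fold change in polyA+ RNA lay between -0.05 and 0.07. In rRNA-depleted RNA the mutant libraries lay under the WT libraries without overlap at E2 (-0.07) and E3 (-0.06), and neither was called.

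The step from O4 oocytes to unactivated eggs went in opposite directions in the 2 genotypes. In WT the polyA+ level of *sox19b* rose from 52.6 ± 10.7 to 81.1 ± 42.3 CPM (mean ± SD, n = 3), with a log2 fold change of 1.52 (SE 0.38, adjusted p = 0.000365). In *ski7*-/- it fell from 406 ± 27.3 to 141 ± 52.6 CPM, with -1.04 (SE 0.37, adjusted p = 0.0107). The WT rise was no longer called with library size as the only scaling (0.62, adjusted p = 0.0686). Each step also depended on replicate 3: without WT replicate 3 the WT step was 0.72, adjusted p = 0.0530, and without mutant replicate 3 the mutant step was -0.64, adjusted p = 0.177. The difference between the 2 steps, a comparison added after the data were seen, was -2.56 (SE 0.53, adjusted p = 0.000986) and kept its call under 11 of 11 alternatives, with -1.71, adjusted p = 0.00935 without WT replicate 3. In this test 10.1% of all genes were called. The step from FER to E1 (-0.27, SE 0.52, adjusted p = 0.848) and the step from O4 to E1 in rRNA-depleted RNA (-0.13, SE 0.08, adjusted p = 0.376) did not differ between genotypes beyond the threshold, where 2.52% and 7.92% of all genes were called. Neither *nanog* (-0.47, SE 0.36, adjusted p = 0.431) nor *pou5f3* (-0.80, SE 0.45, adjusted p = 0.263) passed the test for the step from O4 to UNA.

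*pou5f3* was also higher in polyA+ RNA of *ski7*-/- oocytes in most libraries, without passing the test. At O1 the WT libraries held 80.8, 119 and 131 CPM and the mutant libraries 230.1, 179 and 183 CPM, at O3 53.5, 58.5 and 126 and 148, 264 and 174 CPM, and at O4 78.9, 79.3 and 51.6 and 117, 105 and 103 CPM. The groups did not overlap at these 3 stages. How often the groups fail to overlap over all genes was not counted, here or for the other genes and stages. Non-overlap is therefore given only as a description. At O2 the values were 107, 162 and 83.3 CPM in WT and 607, 112 and 158 CPM in *ski7*-/-, which overlapped. The log2 fold changes were 0.83 (SE 0.44, adjusted p = 0.298) at O1, 1.21 (SE 0.44, adjusted p = 0.0752) at O2, 1.31 (SE 0.44, adjusted p = 0.0760) at O3 and 0.65 (SE 0.44, adjusted p = 0.505) at O4. The O1 value passed the threshold with the stage fitted alone (0.81, adjusted p = 0.0318). With DESeq2 the O2 value passed the threshold (1.19, adjusted p = 0.0360). In edgeR the O2 value was 0.18, adjusted p = 0.844 without mutant replicate 1, and DESeq2 was not run without that replicate. The O3 value passed the threshold without WT replicate 3 (1.76, adjusted p = 0.0382), without mutant replicate 1 (1.48, adjusted p = 0.0117) and with DESeq2 (1.29, adjusted p = 0.0253). In the reported fit the genotype effect on *pou5f3* did not differ between library types beyond the threshold at any stage. Its largest difference was 1.06 (SE 0.32, adjusted p = 0.261) at O3. That difference passed when libraries of the same number were paired (1.10, adjusted p = 0.0464). It also passed without WT replicate 3 (1.48, adjusted p = 0.0156) and without mutant replicate 1 (1.17, adjusted p = 0.0465). The O2 difference passed without mutant replicate 2 (1.25, adjusted p = 0.0272), but was 0.06 without mutant replicate 1.

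In 2-cell embryos *pou5f3* was higher in *ski7*-/-. The polyA+ libraries held 1137, 1087 and 1184 CPM in WT and 1624, 1516 and 1469 CPM in *ski7*-/-, so that every mutant library lay above every WT library. The log2 fold change was 0.31 (SE 0.06, adjusted p = 0.000742), kept under 13 of 13 alternatives, at a stage at which 28.2% of all genes were called. At E2, E3 and E4 the log2 fold changes were 0.01, 0.11 and 0.05, none of them called, beside 15.4%, 14.8% and 15% of all genes. The change of the genotype difference from E1 to E4 (-0.27, SE 0.08, adjusted p = 0.157) did not pass the test. In eggs the *pou5f3* log2 fold changes lay between -0.08 and -0.01.

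rRNA-depleted O1 oocytes gave the other *pou5f3* call. WT libraries held 685, 783 and 854 CPM and *ski7*-/- libraries 993, 914 and 951 CPM, which did not overlap. The log2 fold change was 0.28 (SE 0.09, adjusted p = 0.0371), and only 5 of 13 alternatives kept it under the threshold. Leaving out WT replicate 1 (0.20, adjusted p = 0.113), WT replicate 2 (0.27, adjusted p = 0.118) or any 1 of mutant replicates 1 (0.26, adjusted p = 0.131), 2 (0.31, adjusted p = 0.0732) and 3 (0.28, adjusted p = 0.0890) lost it. At O2, O3 and O4 the values were 0.11, 0.21 and 0.15, and the groups did not overlap at O2 and O3 either, without a call. In rRNA-depleted embryos they lay between 0.04 and 0.11, and none of the 3 genes was called there by edgeR or DESeq2 (1 unadjusted p under 0.05, that of *nanog* at E1), where 11.6%, 10.9%, 14.6% and 12.1% of all genes were called at E1 to E4.

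*nanog* showed no genotype difference that passed the test in any of its 11 polyA+ and 8 rRNA-depleted comparisons. In edgeR 1 polyA+ and 1 rRNA-depleted comparison of *nanog* had an unadjusted p under 0.05, and DESeq2 called 0 in either library type. In polyA+ oocytes the log2 fold changes lay between 0.03 and 0.28, and the O2 value was -0.10, adjusted p = 0.858 without mutant replicate 1. In eggs they lay between -0.23 and -0.21. At E2 the 3 mutant libraries (2039, 1963 and 1978 CPM) lay under the 3 WT libraries (2255, 2280.2 and 2064 CPM), with a log2 fold change of -0.19 (SE 0.07, adjusted p = 0.0718) that passed the threshold without WT replicate 3 (-0.25, adjusted p = 0.0465). At E3 the mutant libraries again lay under the WT libraries (-0.14, adjusted p = 0.198). In rRNA-depleted RNA the largest values were 0.16 (SE 0.08, adjusted p = 0.175) at O1 and -0.12 (SE 0.05, adjusted p = 0.174) at E1, where the groups did not overlap in either case.

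Over the 3 genes together, 5 of 33 polyA+ and 1 of 24 rRNA-depleted genotype tests were called by edgeR. Of all genes, 6.44% to 28.2% were called per polyA+ stage and 10.9% to 16.3% per rRNA-depleted stage. No result about the 3 genes as a set is read from these counts. Trends over a period, from its first to its last stage, did not differ between genotypes in any of 15 tests by edgeR. One of them, *pou5f3* from E1 to E4 in polyA+ RNA, had an unadjusted p under 0.05, and DESeq2 called 0. Of all genes, 0%, 0% and 1.29% were called for the trends of polyA+ oogenesis, eggs and embryogenesis, and 0.0295% and 0% for rRNA-depleted oogenesis and embryogenesis.

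The course over the stages was then followed in WT. In polyA+ RNA the 3 mRNAs rose at different steps: *nanog* and *pou5f3* between the O4 oocyte and the unactivated egg, and *sox19b* most strongly between the fertilized egg and the 2-cell embryo. *nanog* held 548, 503 and 354 CPM in the 3 O4 libraries and 1902, 1868 and 2806 CPM in the 3 UNA libraries. All egg libraries lay above all oocyte libraries. *pou5f3* went from 78.9, 79.3 and 51.6 CPM at O4 to 618, 682 and 703 CPM in UNA, again without overlap. The log2 fold changes were 3.09 (SE 0.27, adjusted p = 2.26e-14) for *nanog* and 4.10 (SE 0.36, adjusted p = 1.93e-14) for *pou5f3*. On the linear scale *pou5f3* rose 17.2-fold and *nanog* 8.52-fold. At this step 78.5% of the 10892 genes tested were called. Its size depended on the scaling, since the median log2 change of all genes was -0.17 after TMM scaling and -1.02 with library size only. With library size only the log2 fold changes were 2.22 for *nanog* and 3.25 for *pou5f3*, both still called, and 0.62, adjusted p = 0.0686 for *sox19b*.

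No further step within eggs was called for the 3 genes in WT by edgeR (0 with an unadjusted p under 0.05) or DESeq2. ACT libraries held 2009.5, 2218 and 2896 CPM of *nanog* and 632, 838 and 764 CPM of *pou5f3*, within or close to the range of UNA. From FER to E1 *sox19b* rose from 81.5, 48.9 and 133 CPM to 456, 490.1 and 459 CPM, a step without overlap and with a log2 fold change of 1.87 (SE 0.38, adjusted p = 6.97e-05). At E2 the 3 libraries held 1012, 675 and 1038 CPM and at E4 1166, 1052 and 1104 CPM, so that most of the later gain came before the 64-cell stage. The step from E1 to E2 was 0.51 (SE 0.37, adjusted p = 0.282) and was not called, although with library size only it was 0.96, adjusted p = 0.00997. *nanog* fell over the same step, from 2718, 2299 and 2514 to 2255, 2280.2 and 2064 CPM, with a log2 fold change of -0.62 (SE 0.25, adjusted p = 0.0427). That call was lost without WT replicate 1 (-0.57, adjusted p = 0.145), without WT replicate 2 (-0.72, adjusted p = 0.0950) and with library size only (-0.19, adjusted p = 0.454).

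Across the 10 polyA+ steps in WT, 5 of 30 tests of the 3 genes were called. The share of all genes called was 0% from O1 to O2, 1.74% from O2 to O3, 1.49% from O3 to O4, 2.25% from UNA to ACT, 0% from ACT to FER, 45% from FER to E1, 42.2% from E1 to E2, 1.38% from E2 to E3 and 0.762% from E3 to E4. In *ski7*-/- the same steps were called for *nanog* and *pou5f3* from O4 to UNA (2.63, SE 0.27, adjusted p = 2.63e-12 and 3.30, SE 0.35, adjusted p = 6.12e-12), for *sox19b* from FER to E1 (1.61, SE 0.38, adjusted p = 0.000732) and for *nanog* from E1 to E2 (-0.79, SE 0.25, adjusted p = 0.0112). The last was lost without mutant replicate 1 (-0.80, adjusted p = 0.0574) or 2 (-0.74, adjusted p = 0.0915). The shares of all genes called in *ski7*-/- were 5.4%, 0.826% and 1.96% for the steps within oogenesis, 76.6% from O4 to UNA, 1.7% and 0% within eggs, 32.6% from FER to E1, and 36.8%, 0.422% and 0.734% within embryogenesis.

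By mean polyA+ level in WT, *nanog* was highest at E1 (2510.5 ± 209.7 CPM, mean ± SD, n = 3), followed by ACT, E2, UNA, FER, E3 and E4 (1850.1 ± 127 CPM), then O1, O2, O3 and O4 (468 ± 102 CPM). Each neighbouring pair in that order overlapped in range except E4 and O1. For *pou5f3* the order was E2 (1431 ± 70.4 CPM), E3, E4, E1, ACT, FER, UNA, O2, O1, O3 and O4 (69.9 ± 15.8 CPM). Ranges did not overlap between E2 and E3, E3 and E4, E1 and ACT, or UNA and O2. For *sox19b* the order was E4 (1107 ± 56.6 CPM), E3, E2, E1, ACT, O1, FER, O2, UNA, O3 and O4 (52.6 ± 10.7 CPM), and ranges did not overlap between E3 and E2, E2 and E1, or E1 and ACT.

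In rRNA-depleted RNA the 3 mRNAs moved far less. From O1 to O4 the WT means changed from 918 ± 12.3 to 769.6 ± 45.2 CPM for *nanog*, from 774 ± 84.7 to 553 ± 42.2 CPM for *pou5f3* and from 732 ± 22.6 to 659.8 ± 17.1 CPM for *sox19b*. All 3 fell from O2 to O3, with log2 fold changes of -0.23 (SE 0.07, adjusted p = 0.0303) for *nanog*, -0.37 (SE 0.08, adjusted p = 0.00256) for *pou5f3* and -0.19 (SE 0.06, adjusted p = 0.0419) for *sox19b*. The *nanog* and *sox19b* calls were each lost without any 1 of the 3 WT replicates, with log2 values between -0.28 and -0.19 for *nanog* and between -0.21 and -0.17 for *sox19b*. From O4 to E1 all 3 rose, by 0.38 (SE 0.07, adjusted p = 1.82e-05) for *nanog*, 0.49 (SE 0.08, adjusted p = 5.87e-06) for *pou5f3* and 0.23 (SE 0.06, adjusted p = 0.00180) for *sox19b*. The shares of all genes called in WT were 2.1%, 6.92% and 1.03% for the steps within oogenesis, 43.5% from O4 to E1, and 0.00916%, 0.00916% and 1.25% within embryogenesis. In *ski7*-/- they were 4.57%, 2.12% and 1.91%, then 43%, then 0%, 0% and 2.76%.

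In rRNA-depleted RNA of *ski7*-/- all 3 genes fell from O1 to O2, with log2 fold changes of -0.33, -0.37 and -0.22 for *nanog*, *pou5f3* and *sox19b*. The *pou5f3* and *sox19b* calls were lost without any 1 mutant replicate and the *nanog* call without mutant replicate 1 or 3. From O4 to E1 *nanog* (0.23, SE 0.07, adjusted p = 0.00532) and *pou5f3* (0.46, SE 0.08, adjusted p = 1.49e-05) rose, and *sox19b* (0.10, SE 0.06, adjusted p = 0.171) was not called. With library size as the only scaling in edgeR, *sox19b* was called as well (0.31, adjusted p = 1.87e-05). The *nanog* call was lost without mutant replicate 1 (0.21, adjusted p = 0.0655). With paired stages, *pou5f3* also fell from O2 to O3 in *ski7*-/- (-0.27, adjusted p = 0.0169).

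The library types were compared at the 8 shared stages. In WT oocytes *pou5f3* and *sox19b* stood far lower in polyA+ than in rRNA-depleted RNA, and their polyA+ level was on average 0.141 and 0.121 of the rRNA-depleted level at O1 and 0.128 and 0.0794 at O4. For *nanog* the ratio was 0.680 at O1 and 0.605 at O4. Over the 12 WT oocyte pairs of the same replicate number the *sox19b* ratio ranged from 0.0644 to 0.152, that of *pou5f3* from 0.0886 to 0.218 and that of *nanog* from 0.491 to 0.786. The *nanog* range lay wholly above the other two. Among all genes compared, *sox19b* stood at percentile 2.05 to 2.19 and *pou5f3* at percentile 2.36 to 2.54 of the ratio in WT oocytes, where the median ratio was 0.850 to 0.875, and *nanog* at percentile 28.6 to 39.3.

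**Figure D3:**
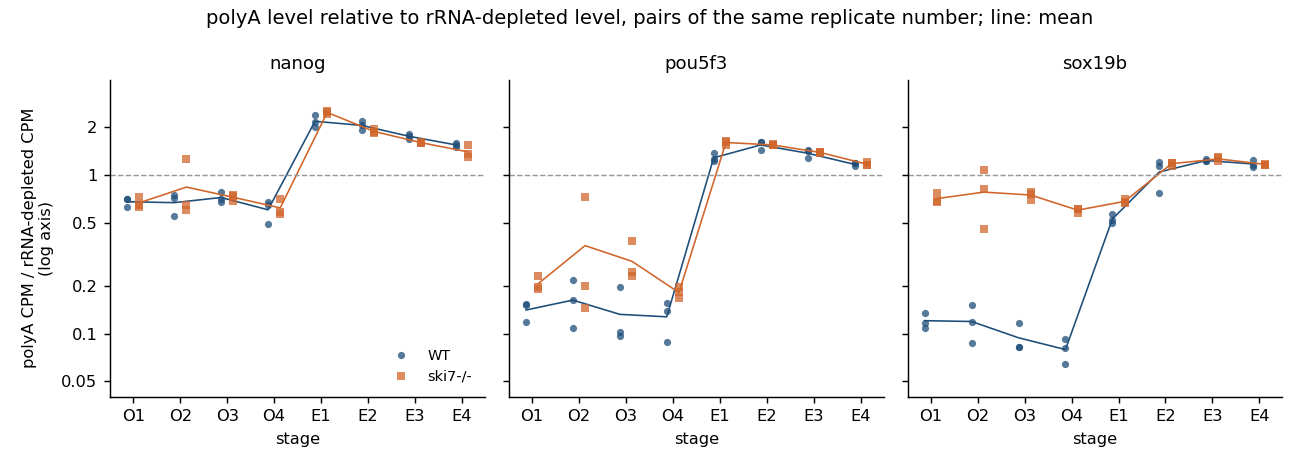
PolyA+ CPM divided by rRNA-depleted CPM (log axis) of the 3 genes at the 8 shared stages; each symbol is a pair of libraries of the same genotype, stage and replicate number, lines join means of 3, and the dashed line marks equal levels. The WT *sox19b* pairs of oocytes lie between 0.0644 and 0.152, those of *ski7*-/- between 0.455 and 1.08, and in embryos the WT ratio reaches 1.24 at E3.

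In edgeR 18 of the 24 WT tests of polyA+ against rRNA-depleted RNA were called. *sox19b* was lower in polyA+ RNA, with log2 fold changes of -2.72 (SE 0.13, adjusted p = 9.21e-27) at O1, -2.77 at O2, -3.19 at O3 and -3.44 (SE 0.14, adjusted p = 7.63e-32) at O4, and so was *pou5f3*, with -2.49 (SE 0.24, adjusted p = 4.12e-14) at O1, -2.33 at O2, -2.69 at O3 and -2.78 (SE 0.24, adjusted p = 1.24e-15) at O4. *nanog* was called lower at O4 (-0.51, SE 0.12, adjusted p = 0.000319) and not at O1 (-0.24, SE 0.12, adjusted p = 0.0959), O2 (-0.27, SE 0.12, adjusted p = 0.0536) or O3 (-0.23, SE 0.12, adjusted p = 0.105). These earlier values lay near the threshold, and 6, 11 and 3 of 12 alternatives called them at O1, O2 and O3. With DESeq2 they were -0.29, adjusted p = 0.0371 at O1 and -0.31, adjusted p = 0.0253 at O2, and with library size only -0.56, -0.57 and -0.47 at O1 to O3. Without WT replicate 1 the values were -0.38, adjusted p = 0.0345 at O2 and -0.37, adjusted p = 0.0395 at O3. With libraries paired by number the *nanog* values at O1 (-0.24, adjusted p = 0.0289), O2 (-0.29, adjusted p = 0.00918) and O3 (-0.24, adjusted p = 0.0269) passed as well. Of all genes 52.4%, 53.5%, 54.8% and 52.3% were called at O1 to O4, and 68.2%, 51.1%, 39.7% and 28.4% at E1 to E4.

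In embryos the polyA+ level of *nanog* and *pou5f3* was the higher one. *nanog* was higher in polyA+ RNA by 1.97 (SE 0.13, adjusted p = 3.99e-23) at E1, 1.31 at E2, 0.92 at E3 and 0.66 (SE 0.12, adjusted p = 8.67e-06) at E4. Its ratio of 2.19 at E1 stood at percentile 92.3 of the 8823 genes compared. *pou5f3* was higher by 1.20 (SE 0.23, adjusted p = 2.85e-06) at E1, 0.90 (SE 0.22, adjusted p = 0.000432) at E2 and 0.56 (SE 0.22, adjusted p = 0.0372) at E3, and was not called at E4 (0.25, SE 0.22, adjusted p = 0.471). With library size only the E1 value was 1.12 for *nanog*, still called, and for *pou5f3* it was 0.35, adjusted p = 0.207, at a stage where that scaling moved the median of all genes from 0.06 to -0.74. The E3 call of *pou5f3* was kept under only 3 of 12 alternatives and was lost without any 1 of the WT replicates. *sox19b* was not called at E1 (-0.07, SE 0.12, adjusted p = 0.622), but was called lower there with library size only (-0.92, adjusted p = 4.70e-08), and it was higher at E2 (0.32, SE 0.12, adjusted p = 0.0238) and E3 (0.41, SE 0.12, adjusted p = 0.00498). The E2 call was kept under only 3 of 12 alternatives. It was lost with library size only (0.06, adjusted p = 0.769), with DESeq2 (0.21, adjusted p = 0.124), without WT replicate 1 (0.22, adjusted p = 0.309) or 3 (0.21, adjusted p = 0.221) and without mutant replicate 2 (0.27, adjusted p = 0.0655) or 3 (0.27, adjusted p = 0.107). The E3 call was lost with library size only (0.31, adjusted p = 0.0882) and without WT replicate 1 (0.36, adjusted p = 0.0876).

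In *ski7*-/- oocytes the *sox19b* ratio was 0.712, 0.782, 0.749 and 0.602 at O1 to O4, at percentile 27.5 to 37.3 of the genes compared, in place of 0.121, 0.119, 0.0943 and 0.0794 in WT. For *pou5f3* the mutant ratio was 0.207, 0.359, 0.286 and 0.182, at percentile 2.86 to 4.90. The O2 means rest on the library that stood apart: the 3 O2 pairs gave 0.733, 0.145 and 0.20 for *pou5f3* and 1.08, 0.455 and 0.815 for *sox19b*, with replicate 1 first and highest in both. The lower ratio of *pou5f3* was thus present in both genotypes, and that of *sox19b* was far less marked in *ski7*-/- than in WT. In *ski7*-/- oocytes the *sox19b* ratio was still under the median of the genes compared (0.873 to 0.946). Over the shared stages edgeR called *sox19b* lower in polyA+ RNA in 5 tests of both genotypes, 4 of them in WT. Of all genes, 51.2%, 44.2%, 47.9% and 51.6% were called in either direction at O1 to O4 in *ski7*-/-. At E1 to E4 in *ski7*-/- the shares were 66.2%, 48.0%, 37.8% and 26.1%. No contrast between the genotypes is read from the count of calls. The ratio of *nanog* was 0.670 at O1 and 0.622 at O4 in *ski7*-/-, close to the WT values.

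Stage trends of the 3 mRNAs differed between library types in WT. From O4 to E1 the polyA+ level gained more than the rRNA-depleted level by 2.48 (SE 0.17, adjusted p = 1.29e-20) for *nanog*, 3.98 (SE 0.33, adjusted p = 1.77e-17) for *pou5f3* and 3.37 (SE 0.18, adjusted p = 3.15e-26) for *sox19b* on the log2 scale. From E1 to E4 the change in polyA+ RNA minus that in rRNA-depleted RNA was -1.31 (SE 0.17, adjusted p = 8.78e-10) for *nanog*, -0.95 (SE 0.31, adjusted p = 0.00864) for *pou5f3* and 0.33 (SE 0.17, adjusted p = 0.11) for *sox19b*, the last not called. These values depended on the scaling. With library size only they were -0.49, adjusted p = 0.0236 for *nanog*, -0.13, adjusted p = 0.807 for *pou5f3* and 1.15, adjusted p = 1.37e-06 for *sox19b*, and the polyA+ mean of *pou5f3* was 1136 ± 48.5 CPM at E1 and 1149 ± 15.6 CPM at E4. The *pou5f3* call was kept under 7 of 12 alternatives and was lost without WT replicate 1 (-0.88, adjusted p = 0.0808) or 2 (-0.81, adjusted p = 0.108). *sox19b* was called under 5 of 12, among them DESeq2 (0.40, adjusted p = 0.0333) and without mutant replicate 2 (0.42, adjusted p = 0.0421). From O1 to O4 *sox19b* lost more in polyA+ RNA (-0.72, SE 0.18, adjusted p = 0.00945), a call kept under 7 of 12 alternatives that was lost with library size only (-0.61, adjusted p = 0.0864) and without WT replicate 2 (-0.74, adjusted p = 0.0769) or 3 (-0.47, adjusted p = 0.411). The shares of all genes called were 4.57% from O1 to O4, 61% from O4 to E1 and 51.3% from E1 to E4. These shares are for WT. In *ski7*-/- the *sox19b* trend from O4 to E1 differed between library types by 0.69 (SE 0.18, adjusted p = 0.000519). Of all genes, 59.4% were called in this *ski7*-/- test. Library size only moved its median over all genes from 0.11 to -0.37. How the *ski7*-/- call fared under the alternatives was not counted.

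The SoxB1 group shares its HMG box with Sox19b, and its other members are known as zygotic genes. Of the 6 genes listed, 4 were matched to an identifier, and before E4 only *sox19b* exceeded 10 CPM in the WT polyA+ stage means. *sox2* stayed at stage means of at most 0.326 CPM over the 11 stages, and *sox19a*, the paralog of *sox19b*, was at 0.112 CPM at E3 and 3.75 CPM at E4. *sox3* went from 0.962 CPM at E3 to 35.4 CPM at E4, when *sox19b* stood at 1107 ± 56.6 CPM. CPM are not corrected for gene length, so these levels are compared between stages and not between genes.

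Genes known to be activated in the blastula downstream of these factors were followed as well. The list held 15 genes, of which 13 were matched. Only 4 passed the filter on low counts, and they passed it through their level at E4, so their change from E3 to E4 is given as levels without a test. *klf17*, a Krüppel-like factor, went from 0.743 CPM at E3 to 90.6 CPM at E4 in WT (means, n = 3), *sox3* from 0.962 to 35.4 CPM, *vox*, a ventral homeobox repressor, from 0.0556 to 23.9 CPM and *nnr* from 0 to 12.8 CPM. The other matched genes had WT polyA+ means at E4 between 0 CPM (*ndr1*) and 2.05 CPM (*foxd3*). At E4 edgeR called the genotype difference of none of the 4, and the unadjusted p-values in polyA+ RNA ranged from 0.565 for *klf17* to 0.861 for *nnr*. The only genotype call among these 4 genes in embryos of either library type was *sox3* at polyA+ E1 (1.79, SE 0.64, adjusted p = 0.0436), where its mean was 0.394 CPM in WT and 1.34 CPM in *ski7*-/-. A count of 3 reads equals 0.0744 to 0.420 CPM in these WT libraries, so the level was near the floor. At this stage 28.2% of all genes were called, and nothing particular to *sox3* is read from its call.

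**Figure D4:**
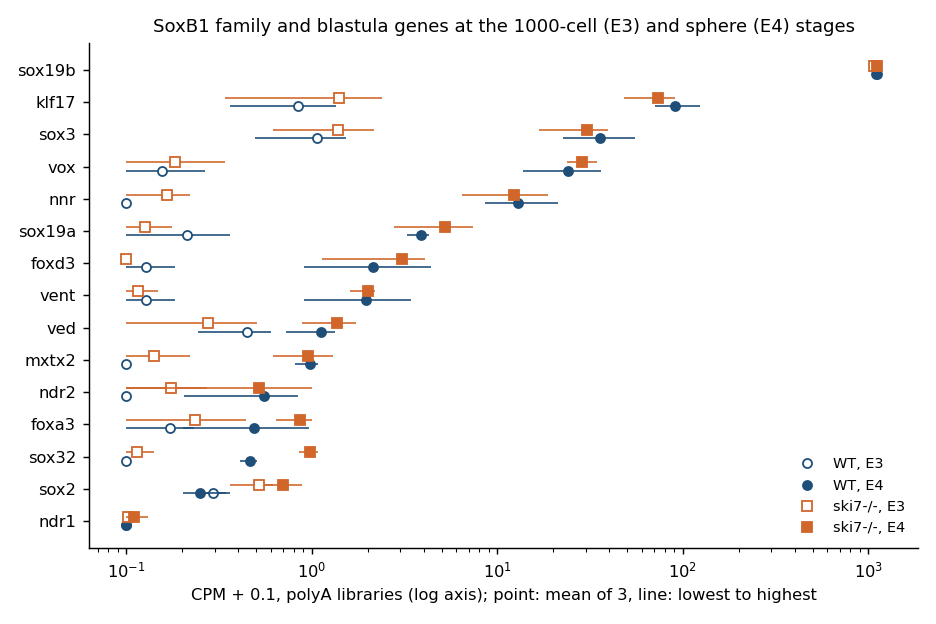
Level of SoxB1 and blastula genes in polyA+ libraries at E3 (open) and E4 (filled) in WT (circles) and *ski7*-/- (squares), as CPM + 0.1 on a log axis; symbols are means of 3 and lines run from the lowest to the highest library. *klf17*, *sox3*, *vox* and *nnr* stand further to the right at E4 than at E3 in both genotypes, while *sox19b* stays near 1107 CPM.

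Of 8 genes listed as maternal partners, 4 were matched to an identifier, and 3 of these are described here. From O4 to UNA in WT *hmga1a*, a chromatin architectural protein (2.74, SE 0.18, adjusted p = 4.52e-19), and *ybx1*, an mRNA-binding protein (1.52, SE 0.12, adjusted p = 3.12e-16), rose in polyA+ RNA. *foxh1*, a Nodal-pathway factor, was lower (-0.41, SE 0.14, adjusted p = 0.00682). Its level was 116 CPM at O4 and 49.5 CPM in UNA and then 186 CPM at E1. From O4 to UNA 78.5% of all genes were called, and nothing particular to these 3 genes is read from their calls. In the genotype comparison of polyA+ oocytes *hmga1a* was called higher in *ski7*-/- at O1 (0.37, SE 0.11, adjusted p = 0.040). In eggs it was called lower in UNA (-0.47, SE 0.15, adjusted p = 0.0435) and FER (-0.45, SE 0.15, adjusted p = 0.0488), and *ybx1* was called lower in FER (-0.38, SE 0.12, adjusted p = 0.0464) and at E1 (-0.22, SE 0.07, adjusted p = 0.0215). In rRNA-depleted RNA the only call among these 3 genes was *hmga1a* at E3 (1.03, SE 0.26, adjusted p = 0.0131). Of all genes, 8.13%, 18.4%, 19.8% and 28.2% were called between genotypes at polyA+ O1, UNA, FER and E1. At rRNA-depleted E3 the share was 14.6%. Nothing particular to *hmga1a* or *ybx1* is read from these genotype calls.

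The genes whose WT polyA+ course was most like that of each factor were found by Pearson's r of stage means of log2(CPM + 1) over 11 stages, among 10667 genes. Oocyte stages share a set of ovaries and egg stages share females. The genes were also picked by their r, so these values are descriptions. For *nanog* they were *tnpo2a* (r = 0.997), *ppp1cab* (r = 0.997) and *SMPD4* (r = 0.996), and over the 8 rRNA-depleted stages their r with *nanog* was 0.883, -0.535 and 0.884. For *pou5f3* they were *YRDC* (r = 0.996), *tbl1xr1b* (r = 0.995) and *NAA15* (r = 0.994), with 0.762, 0.827 and -0.659 in rRNA-depleted RNA. For *sox19b* they were *SUN1* (r = 0.995), *DISP1* (r = 0.994) and *matr3l1.2* (r = 0.994), with 0.915, 0.780 and 0.886. Over the *ski7*-/- polyA+ stages the r of *sox19b* with the same 3 genes was 0.489, 0.461 and 0.730. *nanog* and *pou5f3* had an r of 0.967 over the WT polyA+ stages, but *pou5f3* ranked only 371 by its r with *nanog*. The r was 0.569 for *nanog* and *sox19b* and 0.747 for *pou5f3* and *sox19b*. Over the WT rRNA-depleted stages the r of these 3 pairs was 0.969, 0.991 and 0.961. Over the *ski7*-/- polyA+ stages it was 0.940, -0.184 and 0.149.

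The *nanog* transcript was also quantified per length by the authors as TPM, a unit scaled for both transcript length and library depth. In polyA+ WT libraries it stood at 169.9 ± 5.92 TPM at O1 (mean ± SD, n = 3), 156 ± 24.9 at O4, 1098 ± 336 in UNA, 1205 ± 116 at E1 and 1000.1 ± 57.4 at E4. Among 58334 transcripts its rank lay between 692 and 1198 in WT oocytes and between 38 and 157 in WT eggs and embryos. Transcripts of *pou5f3* and *sox19b* were not analysed here, since the transcript values carry no gene names.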

How the data were processed

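Gene-level read counts of 114 libraries were used as deposited. Per the labels and the study's methods, RNA was extracted with TRIzol, selected on polyA or depleted of rRNA, and made into strand-specific libraries. The trimmer is given as cutadapt 1.18 in the submitters' processing notes and as bbduk in the study's methods. The authors aligned the reads to GRCz11 with HISAT2 2.1.0, handled alignments with SAMtools 1.9 and obtained the deposited counts of uniquely mapped reads per Ensembl gene with HTSeq 0.9.1. The deposited transcript values are estimated counts and TPM from kallisto 0.43.0, used for *nanog* alone. Reads without a feature (10.3 to 18.2% of polyA+ and 12.2 to 29.4% of rRNA-depleted reads) were left out of library sizes. CPM were computed from the reads on genes.

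Groups and replicate numbers came from the labels. A gene had to reach 10 CPM in 3 or more libraries of a fit and was then tested with the quasi-likelihood test of edgeR 4.0.16 (R 4.3.3, limma 3.58.1, TMM scaling), two-sided, with Benjamini-Hochberg adjustment over all genes of a contrast and a threshold of 0.05. Genotypes were compared in 1 fit per period, steps between stages in 1 fit per library type, and library types in 1 fit of the 96 libraries of the shared stages. Alternatives were DESeq2 size factors, library size only, a minimum of 1 CPM, no filter, the DESeq2 1.42.0 Wald test, single stages, each replicate left out and a replicate block. A replicate left out was removed from 1 genotype at all stages and library types of the fit. The method was tested on simulated counts. The members and gene lists were chosen with earlier results of these data known. The tests of the genotype effect between library types and of steps between genotypes were added after the data were seen. Genes named for a like course were the 3 with the highest Pearson's r to each member. From the lists, SoxB1 genes and up to 6 called genes with large changes were named. One listed gene is not reported here. Of 31466 gene identifiers, 28965 had a symbol. Descriptive values and figures came from Python 3.11.15 (pandas 2.3.3, numpy 2.4.6, matplotlib 3.10.9).

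Oocyte and egg replicates came from different females, and for embryo pools nothing says that the parents differed, so p-values there measure the spread between these samples. The reported fits did not pair libraries, and pairing entered only through the replicate block among the alternatives. Replicates of the same number met the rule for pairing where the sources state that stages shared females (UNA, ACT and FER). They also met it where every correlation of their deviations from the group means was over 0.1. The sources do not say whether oocyte libraries of the same number share a female. This held for eggs (lowest 0.412), for stages of rRNA-depleted oogenesis (lowest 0.433) and for polyA+ with rRNA-depleted libraries of the same genotype and stage (lowest 0.155).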

Additional observations from a re-analysis of the deposited data

Results flagged for a closer look

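In 11 results an effect differed between groups by a test of the difference itself (edgeR's quasi-likelihood test, Benjamini-Hochberg adjustment). Trends that differed between library types entered this count for WT alone. Of such trends 6 of 9 were called in WT and 11 of 18 over both genotypes. Groups of 3 were not tested for outlying samples. The genotype difference of *sox19b* was larger in polyA+ than in rRNA-depleted RNA by 2.52 at O1, 2.51 at O2, 2.94 at O3 and 2.89 at O4 on the log2 scale. At each of these stages the polyA+ ranges of the genotypes did not overlap and the rRNA-depleted ranges did. The step of *sox19b* from O4 oocytes to unactivated eggs differed between *ski7*-/- and WT by -2.56 on the log2 scale.

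Stage trends of WT differed between library types from O4 to E1 by 2.48 for *nanog*, 3.98 for *pou5f3* and 3.37 for *sox19b*. From E1 to E4 they differed by -1.31 for *nanog* and -0.95 for *pou5f3*, and from O1 to O4 by -0.72 for *sox19b*. The last 2 calls were each kept under 7 of 12 alternatives. What lies behind these differences was not tested.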

How the results depend on the processing

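Of 2907 values of 240 single-gene results under an alternative, 2776 kept their side of the threshold, 71 fell short of it and 60 newly passed it. Among called values 0 turned direction. Values that were not called could change sign, as *nanog* at polyA+ O2 did (0.28 as reported, -0.10 without mutant replicate 1). The 4 *sox19b* genotype calls of polyA+ oocytes, their difference between library types and the difference of the *sox19b* step from O4 to UNA between genotypes held under each alternative run. The single call among 24 rRNA-depleted genotype tests went to 0 with a minimum of 1 CPM, with no filter and with each stage fitted alone, and ranged from 0 to 1 with 1 replicate left out. Leaving out replicates gave 5 to 7 polyA+ genotype calls (5 as reported), 9 polyA+ step calls in each case (10 as reported), 6 to 10 rRNA-depleted step calls (11 as reported), 16 to 19 library type calls (18 as reported), 4 to 7 trends that differed between library types (6 as reported) and 4 to 5 genotype differences that differed between library types (4 as reported). With library size only, 1 of 15 trends differed between genotypes, against 0 as reported, and this was *pou5f3* in polyA+ embryos. The cause was not tested.

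With a replicate block 10 of 48 polyA+ steps were called, against 2 of the same tests without it, and 1 of 15 trends differed between genotypes, again *pou5f3* from E1 to E4 in polyA+ RNA. The stages of polyA+ oogenesis (lowest correlation -0.00124) and embryogenesis (lowest 0.0568) and of rRNA-depleted embryogenesis (lowest 0.0502) did not meet the rule for pairing, nor did WT with *ski7*-/- libraries of the same number (lowest -0.316). The block gave 6 of 33 polyA+ genotype calls, 1 of 24 rRNA-depleted genotype calls, 8 of 36 rRNA-depleted steps, 21 of 24 library type calls, 3 of 6 trends between library types and 5 of 24 genotype differences between library types. The share of all genes called under the block is not given here. No result about the 3 genes is therefore read from the block counts. The block was not run for steps between periods or their genotype differences, nor for the trend from O4 to E1.

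Scaling by library size only, in place of TMM, moved the share of higher calls among all genes from 49.0% to 78.8% for the genotype difference of UNA, from 50.7% to 77.4% for ACT, from 45.8% to 76.6% for FER and from 49.4% to 71.1% for polyA+ E1. It moved that share from 46.7% to 32.2% for the WT step from O4 to UNA, from 47.4% to 75.5% from FER to E1, from 52.9% to 79.6% from E1 to E2, and from 51.9% to 25.9% for polyA+ against rRNA-depleted RNA at WT E1. For the difference of the step from O4 to UNA between genotypes it moved from 47.1% to 85.1%. Each library held 312 or more reads of each gene, and the 3 replicates per group limit the precision of these tests.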
